A study of Mus musculus with 15 samples.

Results

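Embryonic fibroblasts that received MyoD-mRNA together with 3 small molecules (F/R/C: forskolin, RepSox, CHIR99210), the MyoD + F/R/C group, were compared with embryonic fibroblasts that received MyoD-mRNA and none of these compounds (+MyoD). The comparison takes 6 of the 15 bulk RNA-seq libraries of the series, chosen by their labels, with 3 libraries in each group and libraries paired by replicate number. Cells of both groups were primary mouse embryonic fibroblasts (MEFs) of the genotype Tg:Pax7-nGFP/C57BL6;DBA2, which carry a green fluorescent reporter for the muscle stem cell gene Pax7. Both were transfected 4 times with synthetic mRNA encoding MyoD, in the medium used for induced myogenic progenitor cells (iMPCs), and both were collected on day 10. B18R, a viral interferon-binding protein, was added for the transfections and, by the study's methods, kept for a short time after the last. Only the MyoD + F/R/C cultures had the 3 compounds. By the study's methods each MEF line came from 1 embryo and 3 lines were used, so the 3 values of a group are biological replicates, and a replicate number is taken as a line. Because the compounds were given together, their separate parts cannot be told apart here. RNA came from whole cultures, so a change in the number of cells of a type and a change in RNA per cell cannot be told apart either. Levels in untransfected MEFs of the same lines are given for orientation. For these the sources give both day 0 and day 10.

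Each compound acts on a known signalling step. Forskolin activates adenylyl cyclases, which make cAMP, and cAMP acts through protein kinase A on CREB factors that bind cAMP response elements in promoters. RepSox inhibits the kinase of the type I TGF-β receptor Tgfbr1, which otherwise activates SMAD factors and genes of matrix production and contraction. CHIR99210 inhibits the kinase GSK3, which marks β-catenin for destruction, so that β-catenin accumulates and joins TCF/LEF factors at Wnt target genes. MyoD is a basic helix-loop-helix factor that starts the skeletal muscle program in fibroblasts.

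The deposited estimated counts summed to 36737076, 38780615 and 41885769 in the MyoD + F/R/C libraries, against 33963335, 39494247 and 34092932 in the +MyoD libraries. CPM of a single gene here means counts relative to a library total adjusted by TMM. Summed levels of cell type markers are relative to the total without that adjustment, so they stand on another scale than the single genes. The TMM factors were 1.053, 1.044 and 1.096 in MyoD + F/R/C, against 0.943, 0.872 and 0.992 in +MyoD. Values stand in the order of lines 1, 2 and 3, and they compare samples of 1 gene, not genes with each other. A gene is called higher or lower when its adjusted p is at most 0.05 in edgeR's quasi-likelihood test and its log2FC (MyoD + F/R/C over +MyoD) is over 0.5 in size. Of 19331 genes tested, 2241 were called higher and 1713 lower, which is a background of 11.6% and 8.86% of all genes. Among the called genes 1742 rose and 761 fell by more than 1 on the log2 scale, and 571 rose and 110 fell by more than 3. The median log2FC of all genes was 0.04. All 3 lines moved up for 2209 of the genes called higher, against 5208 of all genes tested. All 3 moved down for 1671 of those called lower, against 4672 of all genes tested. The 3 libraries of each group did not overlap for 2090 and 1533 of the called genes, against 33.5% of all genes tested. The calls rest on the same libraries, so such agreement is no separate support for them. Across genes, the log2 differences of the lines had a Pearson's r of 0.44 to 0.52, a description only, since genes are not independent replicates.

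Differentiated muscle markers were high in both groups, with a summed level of 5628 to 9032 CPM in MyoD + F/R/C, against 1001 to 1686 CPM in +MyoD and 30.5 to 44.5 CPM in MEFs. Fibroblast markers summed to 8371 to 13250 CPM in MyoD + F/R/C, against 6858 to 21910 CPM in +MyoD and 2017 to 2579 CPM in MEFs, sums that overlapped between the groups, while 5 of the 8 markers were called higher and 1 lower. In the longer list of fibroblast identity genes 9 of 20 tested were higher and 2 lower (median 0.81), and 5 were higher without MyoD + F/R/C replicate 2 or +MyoD replicate 2. Among the other cell types the 5 neuron markers were all called higher and are described with the neuronal genes. Chondrocyte markers summed to 1.22 to 3.23 CPM in MyoD + F/R/C, against 13.3 to 41.7 CPM in +MyoD and 89.8 to 185 CPM in MEFs. Of the 3 tested, 1 was called lower. The longer cartilage and joint list went both ways, with 2 of 13 tested genes called higher and 3 lower (median −0.38). In that list 1 was higher without MyoD + F/R/C replicate 2. Endothelial markers summed to 7.03 to 11.1 CPM in MyoD + F/R/C, against 2.67 to 3.19 CPM in +MyoD and 6.13 to 8.61 CPM in MEFs. In the longer endothelial list, however, 2 of 10 tested genes were called higher and 2 lower. Only 1 was higher without MyoD + F/R/C replicate 1 or 2 or +MyoD replicate 3. Macrophage markers summed to 0.671 to 2.21 CPM in MyoD + F/R/C, against 2.60 to 10.3 CPM in +MyoD and 6.78 to 11.9 CPM in MEFs. The longer macrophage list went both ways, with 2 of 13 tested genes called higher and 3 lower. With 1 library left out, 1 to 2 were higher and 0 to 5 lower. Epithelial markers summed to 0.737 to 1.94 CPM in MyoD + F/R/C, against 0.0882 to 0.355 CPM in +MyoD and 0.572 to 1.62 CPM in MEFs, all low levels. Of these markers Krt5 and Krt14 were at 0 counts in all 6 libraries, and 1 of the 2 tested was called higher. In the longer epithelial list 1 of 6 tested genes was higher. That count was 0 without MyoD + F/R/C replicate 2 or 3 or +MyoD replicate 1 or 3. The spread differed between the groups. The biological coefficient of variation was 0.344 in MyoD + F/R/C and 0.488 in +MyoD, and replicate 1 of +MyoD had the lowest sample quality weight.

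**Figure D1:**
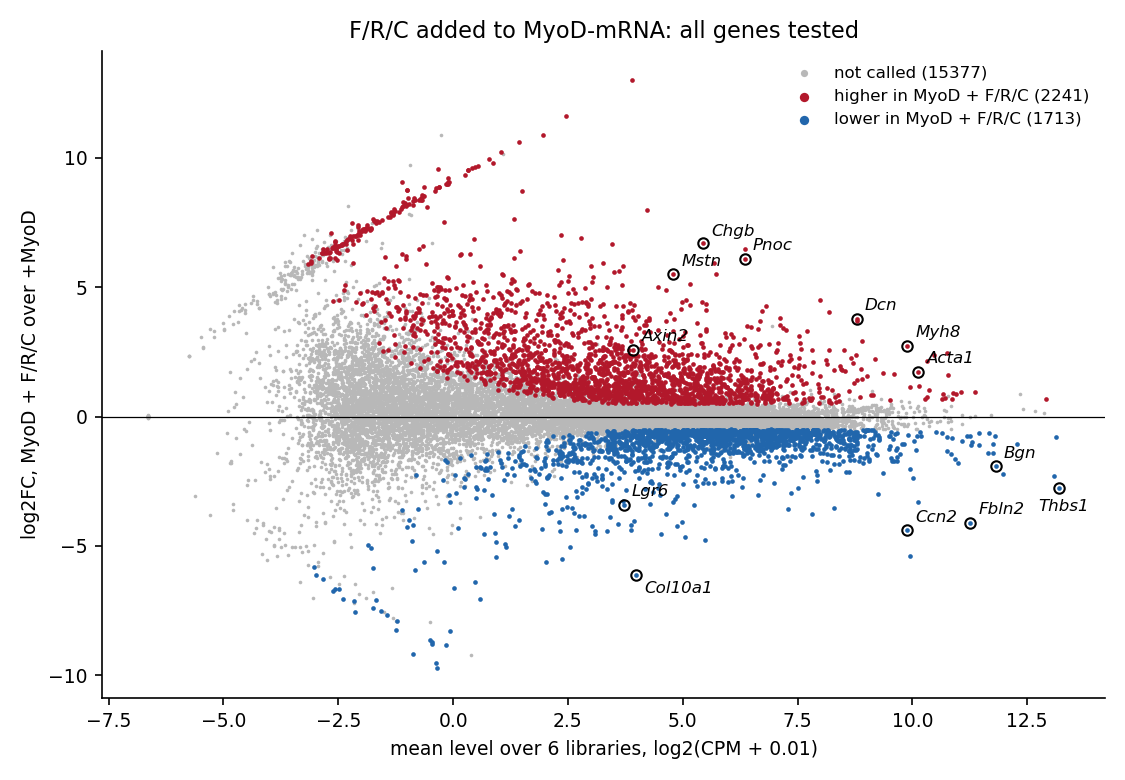
Log2FC of MyoD + F/R/C over +MyoD (vertical axis) against the mean level of a gene over the 6 libraries (horizontal axis, log2 of CPM + 0.01) for all 19331 genes tested. The 2241 genes called higher are red, the 1713 called lower are blue and the others grey. Circled genes are named in the text. Among abundant genes Chgb, Pnoc and Mstn lie near the top and Fbln2 and Col10a1 near the bottom.

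Myod1 itself was abundant in both groups. Reads from the transfected MyoD-mRNA and from the cells' own gene were not told apart here. Whether any transfected mRNA was left on day 10 was not tested. Myod1 (ENSMUSG00000009471.4, chromosome 7 from 46376474 to 46379099, + strand, GRCm38) had 2730.0, 808 and 787 CPM in MyoD + F/R/C, against 3481, 1615 and 1722 CPM in +MyoD. Line 1 was the highest in both groups and the groups overlapped, while within each line the MyoD + F/R/C library was the lower of the pair. Myod1 was called lower (log2FC −0.82, SE 0.26, adjusted p = 0.032), but not in the fit without the replicate block (adjusted p = 0.46). Nor was it called without MyoD + F/R/C replicate 2 or 3 (adjusted p = 0.14 and 0.13) or +MyoD replicate 2 or 3 (adjusted p = 0.073 and 0.096).
Of 14 genes for the direct targets of the compounds and their nearest relatives, 3 were called higher and 2 lower. Tgfbr1, the receptor that RepSox inhibits, had 137, 121 and 106 CPM in MyoD + F/R/C, against 44.8, 33.2 and 57.5 CPM in +MyoD (log2FC 1.44, SE 0.18, adjusted p = 8.8e-05). Every MyoD + F/R/C library lay above every +MyoD library. Among the adenylyl cyclases, the targets of forskolin, Adcy5 (log2FC 1.86, SE 0.33, adjusted p = 0.001) and Adcy2 (log2FC 0.67, SE 0.11, adjusted p = 0.00081) were higher and Adcy7 (log2FC −1.58, SE 0.22, adjusted p = 0.00021) and Adcy6 (log2FC −0.66, SE 0.14, adjusted p = 0.0031) lower. The targets of CHIR99210 were not called, with a log2FC of 0.03 for Gsk3b (SE 0.13) and −0.20 for Gsk3a (SE 0.09).

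Genes that β-catenin with TCF/LEF factors is known to switch on, among them feedback genes of the Wnt pathway, went both ways. Of 22 tested genes in the list of Wnt feedback and targets, 8 were called higher, 5 lower and 9 not called, with a median log2FC of 0.31. Axin2 (ENSMUSG00000000142.15, chromosome 11 from 108920349 to 108950783, + strand, GRCm38), a scaffold of the complex that destroys β-catenin and a general readout of the pathway, had 27.4, 29.8 and 20.8 CPM in MyoD + F/R/C, against 4.32, 4.05 and 4.599 CPM in +MyoD (log2FC 2.58, SE 0.19, adjusted p = 2.2e-06). The groups were far apart in all 3 lines, and MEFs had 1.04 ± 0.233 CPM. Nkd1, an inhibitor that acts on the Dishevelled proteins, had 44.4, 52.7 and 40.1 CPM in MyoD + F/R/C, against 5.73, 12.7 and 6.85 CPM in +MyoD (log2FC 2.49, SE 0.19, adjusted p = 2.2e-06). Tnfrsf19, a receptor of the TNF family that Wnt signalling induces, had 26.9, 24.2 and 21.1 CPM in MyoD + F/R/C, against 1.66, 1.13 and 1.899 CPM in +MyoD (log2FC 3.94, SE 0.23, adjusted p = 4.6e-07). Its lowest MyoD + F/R/C library was more than 10 times its highest +MyoD library. Notum, a secreted enzyme that removes the lipid of Wnt proteins, and Sp5, a zinc finger repressor, were named after their values were seen. Notum had 96.5, 75.3 and 48.3 CPM in MyoD + F/R/C, against 7.52, 1.13 and 10.4 CPM in +MyoD (log2FC 3.63, SE 0.52, adjusted p = 0.00023). Sp5 had 1.58, 2.18 and 0.809 CPM in MyoD + F/R/C, against 0.157, 0 and 0 CPM in +MyoD (log2FC 4.87, SE 1.10, adjusted p = 0.0073), a low level in every library. Only +MyoD replicate 1 of its group held counts of Sp5, and the fitted log2FC was 8.85 without it, a value that rests on the prior count.
The members that fell include a receptor of the pathway, a cyclin and an adhesion receptor. Lgr6, a receptor for R-spondins, had 2.96, 2.15 and 1.77 CPM in MyoD + F/R/C, against 23.3, 25.7 and 22.8 CPM in +MyoD (log2FC −3.40, SE 0.27, adjusted p = 2.8e-06). Ccnd1, the G1 cyclin D1, had 353, 173 and 319 CPM in MyoD + F/R/C, against 1055, 421 and 789 CPM in +MyoD (log2FC −1.399, SE 0.18, adjusted p = 0.00012). Cd44, a hyaluronan receptor, had 188, 174 and 222 CPM in MyoD + F/R/C, against 1047, 460.3 and 439 CPM in +MyoD (log2FC −1.67, SE 0.22, adjusted p = 0.00013). The groups did not overlap for any of these 3 genes. The others that fell were Bambi, a decoy receptor of TGF-β (log2FC −0.94, SE 0.21, adjusted p = 0.0051), and Dkk2, a secreted Wnt inhibitor (log2FC −1.17, SE 0.33, adjusted p = 0.02), which was not called without MyoD + F/R/C replicate 1 or 3 or +MyoD replicate 2 or 3 (adjusted p = 0.068 to 0.11). The feedback inhibitors Nkd2 (log2FC −0.44, SE 0.34), Rnf43 (log2FC 0.77, SE 1.25) and Znrf3 (log2FC 0.28, SE 0.23) were not called.
Ligands, receptors and secreted inhibitors also went both ways. Of 33 tested, 12 were called higher and 8 lower (5 lower without MyoD + F/R/C replicate 1), with a median of 0.45. Wnt4 had 79.7, 101 and 78.4 CPM in MyoD + F/R/C, against 4.73, 1.804 and 6.02 CPM in +MyoD (log2FC 4.37, SE 0.39, adjusted p = 6.4e-06). The secreted inhibitor Sfrp1 had 648, 1281 and 916 CPM in MyoD + F/R/C, against 49.2, 323 and 298 CPM in +MyoD (log2FC 2.23, SE 0.39, adjusted p = 0.001). Both were separate between the groups. The receptor genes Fzd5 (log2FC −1.85, SE 0.21, adjusted p = 3.9e-05) and Lrp5 (log2FC −1.06, SE 0.12, adjusted p = 3.5e-05) and the agonist Rspo3 (log2FC −2.22, SE 0.38, adjusted p = 0.00089) were lower.

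Promoter windows of 2 genes of this list are shown because both genes were called higher and both hold the core letters of the TCF/LEF site. The letters searched were CTTTGAT and CTTTGAA on both strands, in RefSeq promoters of GRCm38.p6 that run from 250 bases before to 50 bases after the gene start. Capitals mark the core, which lies 104 bases before the start in Sp5 (chr2:70474811-70474833, + strand) and 202 bases before the start in Tnfrsf19 (chr14:61038175-61038197, - strand), where it reads in reverse.
Sp5: aaggccccCTTTGATcaggaaaa
Tnfrsf19: aatgggggATCAAAGtgacaaac
Of 22 tested members, 14 had a promoter in the table, and Dkk1, which was not called, was the only other with the core. The core stood in 7.22% of the promoters of genes called higher and 5.34% of those called lower, against 6.48% of the 16962 promoters of genes tested. Such a match describes letters and is not a test of binding.

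Genes listed as cAMP feedback, not all of which act on cAMP itself, were more often higher than lower. Acute targets of cAMP moved both ways. Of 19 tested cAMP feedback genes 9 were called higher and 1 lower, with a median log2FC of 0.80. Pde3b and Pde7b code for phosphodiesterases, which degrade cAMP. Pde7b had 61.9, 65.9 and 64.5 CPM in MyoD + F/R/C, against 18.04, 9.81 and 24.1 CPM in +MyoD (log2FC 1.93, SE 0.21, adjusted p = 2.9e-05). Pde3b had 65.1, 53.9 and 47.3 CPM in MyoD + F/R/C, against 20.5, 10.5 and 16.5 CPM in +MyoD (log2FC 1.84, SE 0.15, adjusted p = 4.1e-06). Gem, a small GTPase that blocks calcium channels, had 26.5, 37.9 and 17.9 CPM in MyoD + F/R/C, against 5.58, 6.14 and 4.18 CPM in +MyoD (log2FC 2.36, SE 0.24, adjusted p = 1.7e-05). Rgs4, an inhibitor of G protein signalling, had 65.4, 24.02 and 35.2 CPM in MyoD + F/R/C, against 6.26, 5.79 and 5.46 CPM in +MyoD (log2FC 2.75, SE 0.35, adjusted p = 9e-05). The groups were separate for all 4 genes. The member that fell, the phosphodiesterase gene Pde4a (log2FC −0.74, SE 0.24, adjusted p = 0.039), was not called without +MyoD replicate 1 (adjusted p = 0.21), replicate 2 of that group (adjusted p = 0.058) or any of the 3 MyoD + F/R/C libraries (adjusted p up to 0.22).
Of 21 tested cAMP-induced targets 9 were called higher and 4 lower, with a median of 0.18. Stc1, the hormone stanniocalcin, had 315, 320.1 and 156 CPM in MyoD + F/R/C, against 23.7, 13.9 and 42.3 CPM in +MyoD (log2FC 3.41, SE 0.35, adjusted p = 2.2e-05). Dio2, the enzyme that activates thyroid hormone, had 142, 106 and 77.1 CPM in MyoD + F/R/C, against 6.83, 7.39 and 26.9 CPM in +MyoD (log2FC 3.08, SE 0.43, adjusted p = 0.0002). Both were higher in every MyoD + F/R/C library. Th, the enzyme that starts catecholamine synthesis, had 17.01, 1.09 and 5.01 CPM in MyoD + F/R/C, against 0 counts in all +MyoD libraries. Its level was at least 248-fold higher (adjusted p = 0.00011), with the counts pooled and set against a floor of 3 counts over the +MyoD group, and at least 106-fold without MyoD + F/R/C replicate 1. Sst, the peptide hormone somatostatin, had 3.97, 2.204 and 0.919 CPM in MyoD + F/R/C and was also at 0 counts in +MyoD, at least 75.9-fold higher (adjusted p = 0.00069). Lower were Bdnf, a neurotrophin, with 17.97, 15.97 and 18.3 CPM in MyoD + F/R/C, against 77.8, 61.1 and 63.3 CPM in +MyoD (log2FC −1.96, SE 0.23, adjusted p = 4.5e-05), and Ptgs2, the inducible cyclooxygenase, with 155, 196 and 129.9 CPM in MyoD + F/R/C, against 529.7, 379.5 and 235 CPM in +MyoD (log2FC −1.26, SE 0.31, adjusted p = 0.0095). The log2FC of Ptgs2 was −0.81 without +MyoD replicate 1. Nr4a2, an orphan nuclear receptor and immediate early gene, was lower as well (log2FC −0.98, SE 0.20, adjusted p = 0.0025).

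Promoter windows with a full cAMP response element, the letters TGACGTCA, are shown for 6 genes with the element within 100 bases of the start that were called higher. The windows come from the same RefSeq promoters, the capitals mark the element, and the genes were chosen after their values were seen.
Th: aggggcttTGACGTCAgcctggcc
Sst: tccttggcTGACGTCAgagagaga
Areg: ctggtccgTGACGTCAcgggcggt
Scg2: tgagccggTGACGTCAgcgtggaa
Chgb: ctgctccgTGACGTCAgggctgag
Dio2: tttctcaaTGACGTCAagatcttt
The element begins 45 bases before the start in Th (chr7:142900025-142900048, - strand), 48 in Sst (chr16:23890877-23890900, - strand), 61 in Areg (chr5:91139530-91139553, + strand), 68 in Scg2 (chr1:79440079-79440102, - strand), 72 in Chgb (chr2:132781562-132781585, + strand) and 95 in Dio2 (chr12:90739118-90739141, - strand). Areg, a ligand of the EGF receptor, had a log2FC of 1.399 (SE 0.31), and Scg2, a protein of secretory granules, one of 3.71 (SE 0.57). In the lists searched, which were those of cAMP, neuronal and AP-1 genes, 2 more genes held the element. Maff, a small MAF factor with the element 29 bases before the start, was called lower, and Dusp1, a MAP kinase phosphatase with the element at 143 bases, was called higher. In the list of cAMP-induced targets 5 of 18 members with a promoter held the element, and all 5 were called higher. Among all genes the element was no more frequent in promoters of genes called higher (2.31%) than in all promoters tested (2.71%), and it stood in 1.7% of those of genes called lower.

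**Figure D2:**
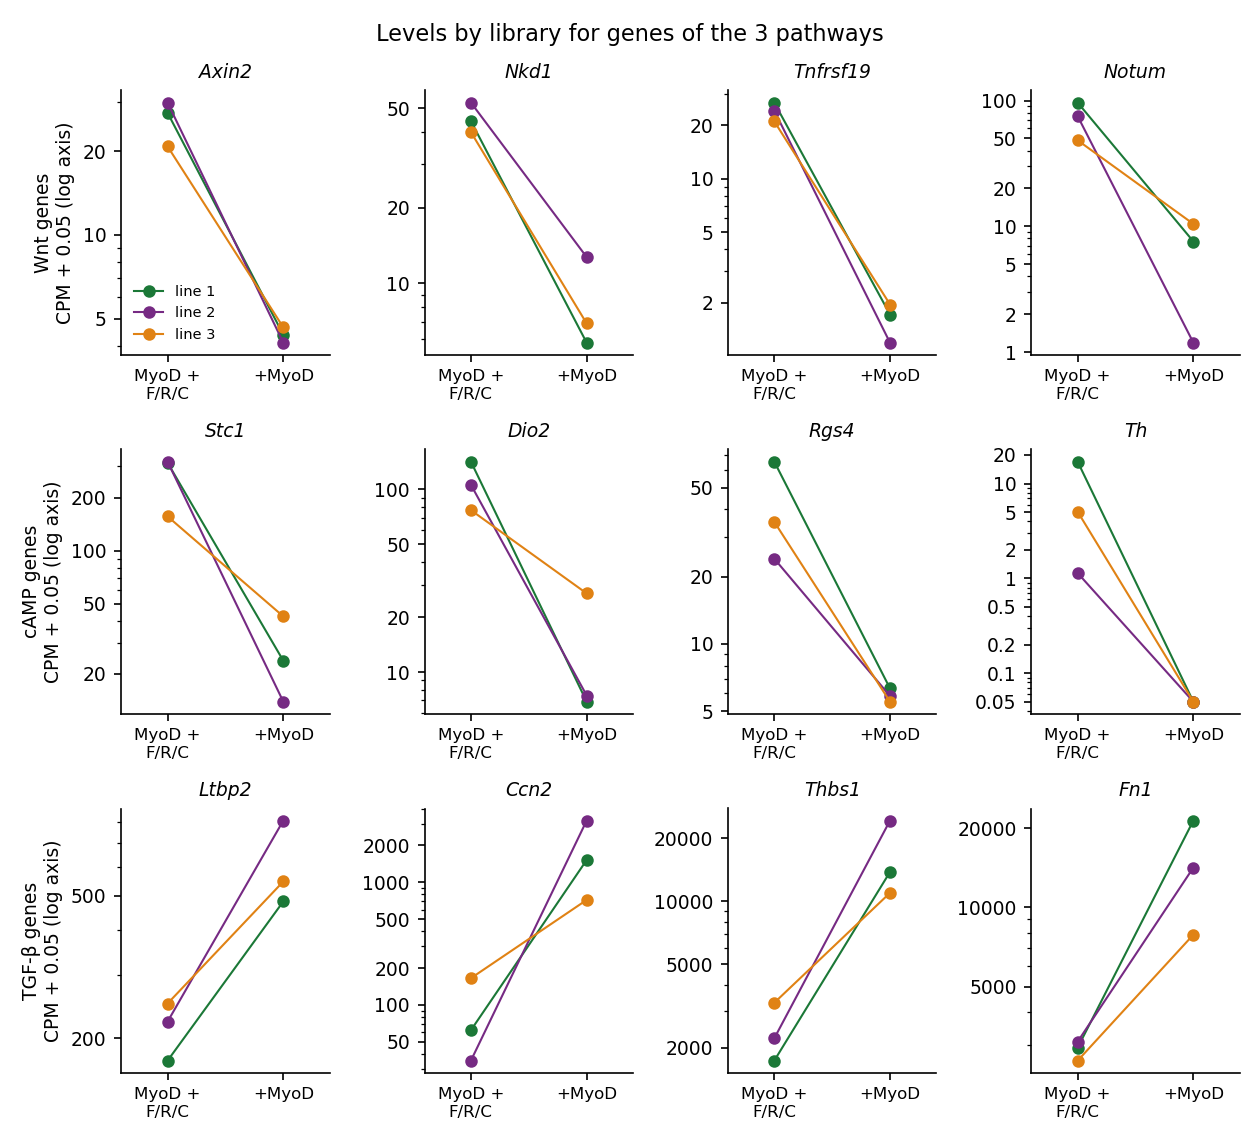
CPM + 0.05 on a log axis (vertical) for 4 Wnt, 4 cAMP and 4 TGF-β genes (panels), each point 1 library and each line joining the 2 libraries of 1 MEF line, with MyoD + F/R/C left of +MyoD. The Wnt and cAMP genes are higher in MyoD + F/R/C in all 3 lines, with Th at 0 in the 3 +MyoD libraries, and Ltbp2, Ccn2, Thbs1 and Fn1 are lower in all 3.

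Response genes of TGF-β fell in most of the list, among them Thbs1 and Fn1, which lost more mean CPM than any other gene. Of 25 tested, 18 were called lower and 1 higher (2 higher without +MyoD replicate 2), with a median log2FC of −0.95. Thbs1 (ENSMUSG00000040152.8, chromosome 2 from 118111876 to 118127133, + strand, GRCm38), thrombospondin 1, an activator of latent TGF-β, had 1729, 2209 and 3271 CPM in MyoD + F/R/C, against 13838, 24359 and 10989 CPM in +MyoD (log2FC −2.77, SE 0.25, adjusted p = 8.3e-06). Fn1, fibronectin, had 2927, 3084 and 2613 CPM in MyoD + F/R/C, against 21389.7, 14178 and 7879.7 CPM in +MyoD (log2FC −2.28, SE 0.26, adjusted p = 3.5e-05). Ltbp2, a binding protein of elastic fibers, had 173, 222 and 249.6 CPM in MyoD + F/R/C, against 482, 809.9 and 547 CPM in +MyoD (log2FC −1.50, SE 0.14, adjusted p = 1.1e-05). None of these groups overlapped. The member that rose was Tgfb2, the ligand TGF-β2, with 168, 138 and 128 CPM in MyoD + F/R/C, against 80.1, 84.9 and 57.5 CPM in +MyoD (log2FC 0.97, SE 0.17, adjusted p = 0.0011), while the ligand gene Tgfb1 fell (log2FC −1.07, SE 0.21, adjusted p = 0.0022). Col3a1, Postn, Snai1 and Snai2 were among the 6 members not called, and Postn, periostin, was called higher without +MyoD replicate 2 (log2FC 1.89, adjusted p = 0.0028).
Targets of YAP and TEAD factors, which answer to cell spreading and tension, and genes of smooth muscle and myofibroblast contraction fell as well. Of 14 tested YAP and TEAD targets 10 were called lower and the rest not called, with a median of −1.14. Ccn2, connective tissue growth factor, stands in this and in the TGF-β list and had 62.1, 35.02 and 165 CPM in MyoD + F/R/C, against 1523, 3195 and 719 CPM in +MyoD (log2FC −4.40, SE 0.59, adjusted p = 0.00015). Axl, a receptor tyrosine kinase, had 232, 242 and 310.0 CPM in MyoD + F/R/C, against 1081, 748 and 603 CPM in +MyoD (log2FC −1.65, SE 0.20, adjusted p = 5.8e-05). Ankrd1, a muscle ankyrin repeat protein that YAP induces, was not called (log2FC −0.11, SE 0.30, chosen after its value was seen), but was called lower without the libraries of line 3 (log2FC −0.68, adjusted p = 0.044).
Of 16 tested contractile genes of smooth muscle and myofibroblasts 8 were lower and 2 higher (4 higher without +MyoD replicate 2), with a median of −1.11. Tagln, transgelin, had 259, 230.1 and 562 CPM in MyoD + F/R/C, against 1953, 2267 and 958 CPM in +MyoD (log2FC −2.39, SE 0.36, adjusted p = 0.00033). Cald1, caldesmon, had 668, 483 and 743 CPM in MyoD + F/R/C, against 1896, 1562 and 1179 CPM in +MyoD (log2FC −1.30, SE 0.19, adjusted p = 0.00022). The members that rose are also made by skeletal muscle, namely Des, the intermediate filament desmin (log2FC 1.16, SE 0.24, adjusted p = 0.0031), and Synpo2, an actin-bundling Z-disc protein (log2FC 2.32, SE 0.21, adjusted p = 6.8e-06). The per-line median of this list was −0.82, −1.61 and −0.02 in lines 1, 2 and 3, so it lay near 0 in line 3, and 5 members were lower without line 2.
The windows of Cnn2, calponin 2, and Myl9, a regulatory light chain, are shown because both genes fell and their promoters hold a CArG box, the site of serum response factor, in capitals.
Cnn2: cttccacgCCTTATAAGGacatttgc
Myl9: agcagaggCCTAATAAGGccgggctg
The boxes start 56 bases before the start of Cnn2 (chr10:79988536-79988561, + strand) and 161 bases before that of Myl9 (chr2:156775295-156775320, + strand). Cnn2 had a log2FC of −1.11 (SE 0.16) and Myl9 of −1.28 (SE 0.32), and Myl9 was not called without MyoD + F/R/C replicate 1 or 2 (adjusted p = 0.066 and 0.063). The box stood in 1.97% of promoters of genes called higher and 2.27% of those called lower, against 1.36% of all tested.

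Within the TGF-β and BMP pathway itself, ligands and inhibitors moved in both directions. Of 33 tested, 14 were called higher and 6 lower, with a median of 0.54. Mstn, myostatin, the inhibitor of muscle growth that muscle fibers secrete, had 54.8, 34.7 and 71.9 CPM in MyoD + F/R/C, against 1.096, 0.378 and 2.195 CPM in +MyoD (log2FC 5.51, SE 0.34, adjusted p = 5.4e-07). Gdf10, a ligand of the same superfamily, had 52.4, 95.1 and 95.8 CPM in MyoD + F/R/C, against 2.22, 2.18 and 7.62 CPM in +MyoD (log2FC 4.42, SE 0.36, adjusted p = 4.1e-06). Bmp6 had 31.8, 26.1 and 29.9 CPM in MyoD + F/R/C, against 6.05, 5.59 and 5.55 CPM in +MyoD (log2FC 2.36, SE 0.22, adjusted p = 8.7e-06). The groups were separate in each case. The Id genes code for inhibitors of helix-loop-helix factors, and Id1 and Id2 are common readouts of BMP signalling. Id4 had 20.3, 20.2 and 18.6 CPM in MyoD + F/R/C, against 3.73, 3.06 and 3.35 CPM in +MyoD (log2FC 2.56, SE 0.21, adjusted p = 3.8e-06). Id2 (log2FC 1.67, SE 0.18, adjusted p = 3.3e-05) and Id1 (log2FC 1.15, SE 0.20, adjusted p = 0.0011) were higher too. Lower were Grem1, gremlin, an inhibitor of BMPs (log2FC −1.14, SE 0.16, adjusted p = 0.0002), Inhba, the subunit of activin A (log2FC −1.71, SE 0.31, adjusted p = 0.0014), and Fstl3, which binds activin and myostatin (log2FC −1.71, SE 0.28, adjusted p = 0.00054).

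**Figure D3:**
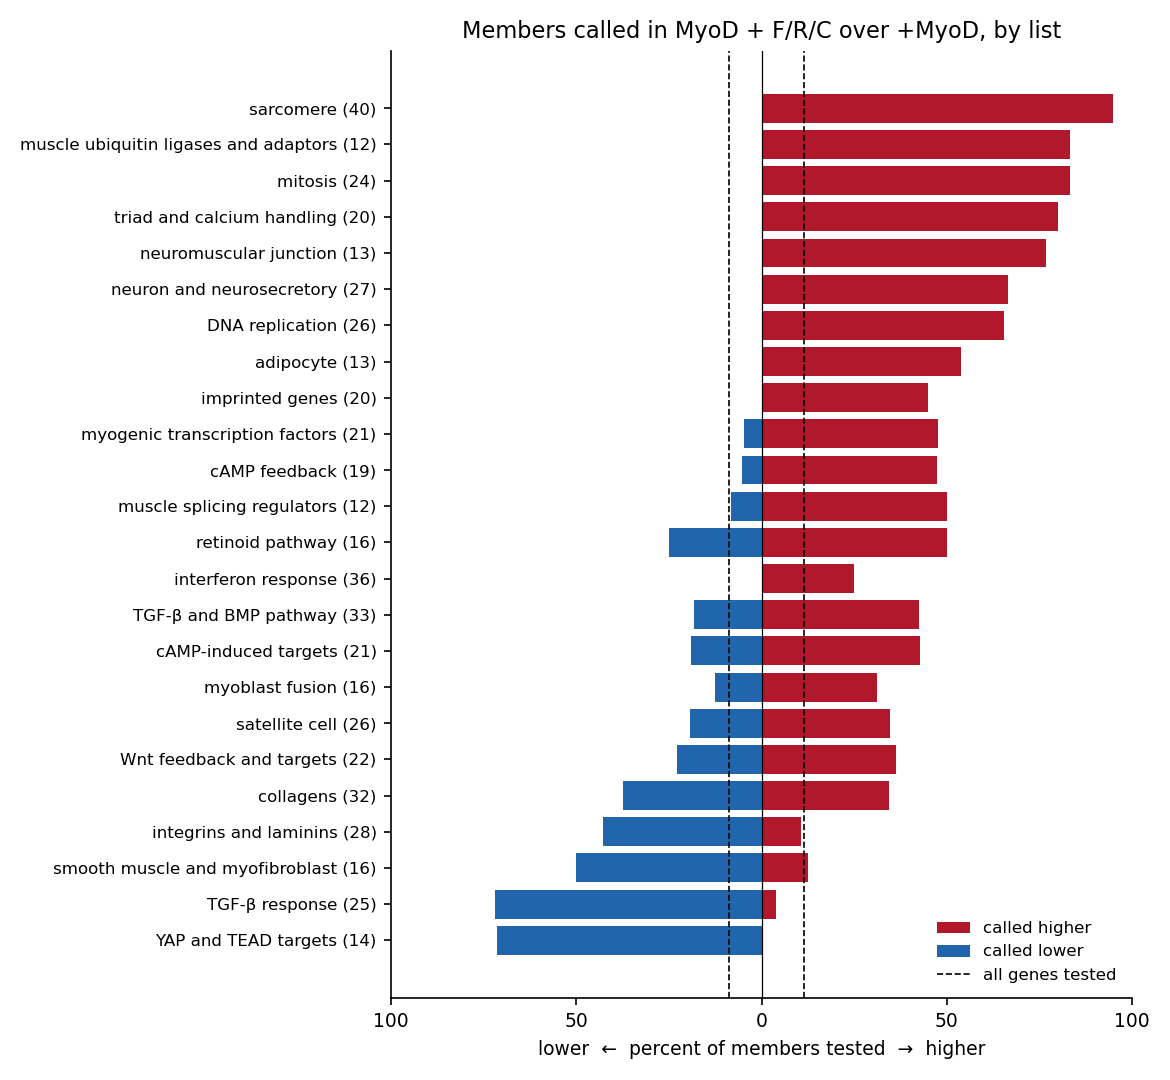
Share of the tested members of 24 gene lists that were called higher (red, to the right of 0) or lower (blue, to the left of 0) in MyoD + F/R/C, in percent of members, with the number of members tested after each name. Dashed lines mark the background of all genes, 11.6% higher and 8.86% lower. Sarcomere genes stand at the top with 38 of 40 higher, and YAP and TEAD targets at the bottom with 10 of 14 lower.

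Skeletal muscle genes stood well above MEFs in +MyoD and were higher again in MyoD + F/R/C. Of 40 tested sarcomere genes 38 were called higher, with a median log2FC of 1.98, and the exceptions were Tcap (log2FC 0.62, SE 0.50) and the slow myosin gene Myh7 (log2FC 0.10, SE 0.31), named after their values were seen. Myh8 (ENSMUSG00000055775.16, chromosome 11 from 67277124 to 67308634, + strand, GRCm38), the perinatal myosin heavy chain, had 1329, 1678 and 1908 CPM in MyoD + F/R/C, against 187, 198 and 366 CPM in +MyoD (log2FC 2.75, SE 0.21, adjusted p = 2.2e-06). Its MyoD + F/R/C libraries all stood above 1300 CPM, and MEFs had 0.143 ± 0.105 CPM. The fast troponin I gene Tnni2 had 84.1, 113 and 156 CPM in MyoD + F/R/C, against 14.4, 12.9 and 23.97 CPM in +MyoD (log2FC 2.77, SE 0.20, adjusted p = 1.8e-06). The slow troponin C gene Tnnc1 had 281, 239.6 and 395 CPM in MyoD + F/R/C, against 70.6, 41.8 and 77.8 CPM in +MyoD (log2FC 2.27, SE 0.17, adjusted p = 2.5e-06). Both rose in all 3 lines without overlap. By the gain in CPM, Acta1, skeletal α-actin, and Myh3, the embryonic myosin heavy chain, were among the 10 genes that gained most. Acta1 had 1192, 1861 and 2147 CPM in MyoD + F/R/C, against 529, 541 and 446 CPM in +MyoD (log2FC 1.74, SE 0.21, adjusted p = 7.5e-05). Myh3 had 2045, 2089 and 2996 CPM in MyoD + F/R/C, against 534, 246 and 618 CPM in +MyoD (log2FC 2.38, SE 0.28, adjusted p = 5e-05). Myosin heavy chain genes are close paralogs, and the division of shared reads among them is an estimate.
Genes of the triad, where excitation releases calcium, showed 16 of 20 tested higher and the rest not called (median 1.94). Casq1, the calcium store protein calsequestrin of fast fibers, had 132, 164 and 189 CPM in MyoD + F/R/C, against 4.73, 15.1 and 30.2 CPM in +MyoD (log2FC 3.47, SE 0.34, adjusted p = 1.4e-05). Atp2a1, the calcium pump, had 393, 452 and 518 CPM in MyoD + F/R/C, against 80.4, 94.8 and 162 CPM in +MyoD (log2FC 2.05, SE 0.17, adjusted p = 3.8e-06). At the neuromuscular junction, where the fiber meets its motor neuron, 10 of 13 tested genes were higher and the rest not called (median 1.74). Ache, acetylcholinesterase, had 25.5, 32.7 and 31.3 CPM in MyoD + F/R/C, against 3.67, 10.5 and 4.01 CPM in +MyoD (log2FC 2.39, SE 0.29, adjusted p = 6.7e-05). Chrng, the embryonic γ subunit of the acetylcholine receptor, had 82.3, 89.1 and 119 CPM in MyoD + F/R/C, against 23.99, 16.5 and 39.3 CPM in +MyoD (log2FC 1.89, SE 0.24, adjusted p = 0.0001). Ubiquitin ligases and adaptors of muscle showed 10 of 12 higher and the rest not called (median 1.89), among them Klhl41, which keeps nebulin stable (log2FC 2.24, SE 0.12, adjusted p = 3.8e-07), and Trim55, MURF2 (log2FC 2.23, SE 0.20, adjusted p = 8.2e-06). Of 18 genes of muscle energy supply 8 were higher and the rest not called (median 1.13), with Pygm, the glycogen phosphorylase of muscle, at 129.7, 164 and 172 CPM in MyoD + F/R/C, against 20.1, 18.8 and 30.8 CPM in +MyoD (log2FC 2.75, SE 0.15, adjusted p = 3.8e-07) and Ckm, muscle creatine kinase, at 19.6, 39.5 and 31.5 CPM in MyoD + F/R/C, against 2.91, 4.83 and 5.16 CPM in +MyoD (log2FC 2.80, SE 0.23, adjusted p = 4.4e-06).
Myoblast fusion stood apart, with 5 of 16 tested members higher and 2 lower and a median of 0.01. Without MyoD + F/R/C replicate 1, 2 or 3 or without +MyoD replicate 2 or 3, 2 members were higher. Mymk, the fusion protein myomaker, had 104, 93.7 and 162 CPM in MyoD + F/R/C, against 55.6, 26.6 and 53.2 CPM in +MyoD (log2FC 1.39, SE 0.31, adjusted p = 0.0054). Cdh15, M-cadherin, had 144, 122 and 203 CPM in MyoD + F/R/C, against 36.8, 10.7 and 29.8 CPM in +MyoD (log2FC 2.63, SE 0.35, adjusted p = 0.00014). The membrane repair gene Dysf fell, with 68.1, 83.6 and 109.7 CPM in MyoD + F/R/C, against 228, 211 and 184 CPM in +MyoD (log2FC −1.28, SE 0.17, adjusted p = 0.00013), as did its relative Myof (log2FC −0.99, SE 0.13, adjusted p = 0.00011).
Upstream of these, 10 of 21 tested myogenic transcription factors were higher and 1 lower (median 1.09), and 6 were higher without MyoD + F/R/C replicate 3. Myog, myogenin, had 103, 73.2 and 189.8 CPM in MyoD + F/R/C, against 36.6, 18.6 and 28.04 CPM in +MyoD (log2FC 2.13, SE 0.38, adjusted p = 0.001). Myf6, MRF4, had 12.4, 17.6 and 15.97 CPM in MyoD + F/R/C, against 0.533, 0.0873 and 1.54 CPM in +MyoD (log2FC 4.56, SE 0.56, adjusted p = 0.00016). Neither overlapped between groups. Dmrt2, a factor of early muscle precursors, had 1.94, 10.2 and 9.03 CPM in MyoD + F/R/C, against 0.0626, 0.466 and 0.208 CPM in +MyoD (log2FC 4.79, SE 0.46, adjusted p = 1.1e-05), with line 1 the lowest of its group. Myf5 (ENSMUSG00000000435.1, chromosome 10 from 107482908 to 107486134, - strand, GRCm38), the myogenic factor of stem and progenitor cells, had 0.933, 0.966 and 1.88 CPM in MyoD + F/R/C, against 0 counts in all +MyoD libraries, which is at least 43-fold higher (adjusted p = 0.00086). Pax7, the factor that defines muscle stem cells, had 1.22, 0.669 and 0.284 CPM in MyoD + F/R/C, against 0 counts in +MyoD, at least 23.3-fold higher (adjusted p = 0.0012) and at least 15.5-fold without MyoD + F/R/C replicate 1. Pax7 was not called with limma-voom (adjusted p = 0.098) or with only the 6 libraries compared and the replicate block (adjusted p = 0.079). Myf5 and Pax7 were near 0 in MEFs as well, at 0.075 ± 0.0712 CPM for Myf5 and 0.0371 ± 0.0642 CPM for Pax7 (mean ± SD, n = 3). MyoD + F/R/C cultures that also had the JNK inhibitor SP600125 held 10.5 ± 8.64 CPM of Pax7, and those that had the JAK inhibitor CP690550 held 10.7 ± 4.64 CPM. The factor called lower, Meox1, rested on +MyoD replicate 2 at 26.5 CPM and was not called without it (adjusted p = 0.51) or without any 1 MyoD + F/R/C library (adjusted p up to 0.18).
Of 26 satellite cell genes 9 were higher and 5 lower (median 0.39). Fgfr4 had 7.47, 9.11 and 7.700 CPM in MyoD + F/R/C, against 1.03, 1.86 and 0.623 CPM in +MyoD (log2FC 2.89, SE 0.39, adjusted p = 0.00014). Among those lower were the surface proteins Sdc3, syndecan 3, with 118, 107 and 113 CPM in MyoD + F/R/C, against 488, 675 and 277 CPM in +MyoD (log2FC −2.05, SE 0.23, adjusted p = 3.5e-05), and Met, the receptor of hepatocyte growth factor, with 20.02, 14.9 and 13.8 CPM in MyoD + F/R/C, against 31.5, 29.2 and 31.9 CPM in +MyoD (log2FC −0.95, SE 0.14, adjusted p = 0.00036).

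A MEF2 box, the site of the MEF2 factors that act with MyoD, stood in 3.22% of promoters of genes called higher and 1.59% of those called lower, against 1.96% of all tested, and in 7 of 29 sarcomere genes with a promoter. Windows of 2 of these are shown as examples, since both genes stand in the myosin cluster of chromosome 11, both rose, and both hold the same box, in capitals. Another myosin gene of this cluster that was called higher holds the same box and is not shown.
Myh1: aactcaaaTTATTTATAGgagattga
Myh8: ttgtcaaaTTATTTATAGgagattgg
The box begins 211 bases before the start of Myh1 (chr11:67199883-67199908, + strand), which had a log2FC of 2.76 (SE 0.45), and 99 bases before that of Myh8 (chr11:67277017-67277042, + strand).

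Transcript use was measured as the share of a gene's TPM, which the authors' pseudoalignment estimates. From 14 genes chosen for known isoforms, 64 transcripts had a share of 10% or more in at least 1 of the 6 libraries. Of these, 11 held a larger and 11 a smaller share in MyoD + F/R/C without overlap between the groups, which is 34.4%. The other 42 overlapped, among them every transcript of Tpm3, Pkm and Fn1. The background without overlap was 9.8%, over tested genes with TPM in all 6 libraries and 2 or more transcripts of that share. Splicing regulators of muscle showed 6 of 12 tested higher and 1 lower (median 0.87), with Rbm24 at 42.99, 43.2 and 58.7 CPM in MyoD + F/R/C, against 12.3, 6.93 and 7.68 CPM in +MyoD (log2FC 2.43, SE 0.21, adjusted p = 5.2e-06), Mbnl3 at 41.6, 30.5 and 50.2 CPM in MyoD + F/R/C, against 5.36, 10.1 and 13.3 CPM in +MyoD (log2FC 2.08, SE 0.26, adjusted p = 7.9e-05), and Mbnl1 lower (log2FC −0.75, SE 0.15, adjusted p = 0.0021). The tropomyosin transcript Tpm1-205 held 39.5%, 37.5% and 32.99% in MyoD + F/R/C, against 6.37%, 7.25% and 7.95% in +MyoD. Of Tpm2, the transcript Tpm2-202 held 31.3%, 33.9% and 31.1% in MyoD + F/R/C, against 10.1%, 9.704% and 13.4% in +MyoD. Tpm2-203 held 51.95%, 48.4% and 51.7% in MyoD + F/R/C, against 87.8%, 84.02% and 85.9% in +MyoD. Ldb3, a Z-disc protein, gave a larger share to Ldb3-207, which held 58.95%, 50.1% and 57.7% in MyoD + F/R/C, against 0%, 0% and 20.1% in +MyoD. Its transcript Ldb3-203 held 5.61%, 6.18% and 7.81% in MyoD + F/R/C, against 43.7%, 24.7% and 28.2% in +MyoD. The shares given here did not overlap between the groups. With 3 libraries in each group an exact permutation test cannot give a p under 0.10, so no test is given. Of the phosphodiesterase gene Pde4d, the transcript Pde4d-207 held 57.2%, 50.1% and 46.5% in MyoD + F/R/C, against 41.1%, 36.02% and 38.6% in +MyoD, also without overlap. Genes for transcripts were chosen for known isoforms, and these transcripts after their shares were seen.

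**Figure D4:**
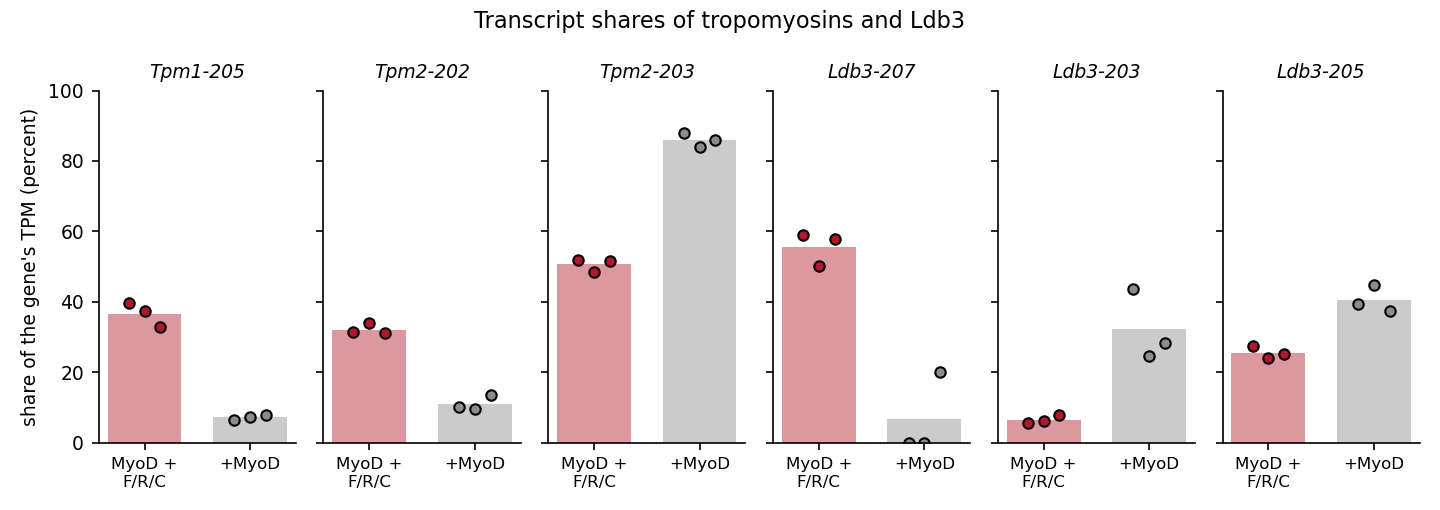
Share of a gene's TPM held by 6 transcripts (panels, vertical axis in percent from 0), each point 1 library and each bar the mean of 3 libraries, with MyoD + F/R/C left of +MyoD. Tpm1-205, Tpm2-202 and Ldb3-207 hold a larger share in every MyoD + F/R/C library, and Tpm2-203, Ldb3-203 and Ldb3-205 a smaller share.

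Matrix genes moved in both directions, also between close relatives. Collagens showed 11 of 32 tested higher and 12 lower (median 0.03). Col10a1, the collagen of hypertrophic cartilage, had 0.389, 0.149 and 0.809 CPM in MyoD + F/R/C, against 49.1, 23.02 and 21.1 CPM in +MyoD (log2FC −6.12, SE 0.61, adjusted p = 1.6e-05). Col11a1, a fibrillar collagen, had 33.8, 37.8 and 18.9 CPM in MyoD + F/R/C, against 233, 780.3 and 245 CPM in +MyoD (log2FC −3.76, SE 0.41, adjusted p = 3e-05). Both were lower in every MyoD + F/R/C library. Higher were Col23a1, a transmembrane collagen, with 205, 148 and 111 CPM in MyoD + F/R/C, against 14.1, 6.66 and 20.6 CPM in +MyoD (log2FC 3.50, SE 0.33, adjusted p = 9.1e-06), and Col15a1, a collagen of the muscle basement membrane, with 635, 799 and 497 CPM in MyoD + F/R/C, against 321, 197 and 198 CPM in +MyoD (log2FC 1.41, SE 0.19, adjusted p = 0.00015). The main fibrillar collagen gene Col1a1 had 5945, 7849 and 4409.5 CPM in MyoD + F/R/C, against 5608, 22575 and 7046 CPM in +MyoD, with +MyoD replicate 2 far above the rest. The groups overlapped, and its call as lower (log2FC −0.79, SE 0.27, adjusted p = 0.045) was lost without that library (adjusted p = 0.3), without any 1 MyoD + F/R/C library (adjusted p up to 0.17) and without the replicate block (adjusted p = 0.11).
Small leucine-rich proteoglycans, which organise collagen fibrils, went both ways, with 3 of 13 tested higher and 3 lower. Kera (ENSMUSG00000019932.8, chromosome 10 from 97606879 to 97613692, + strand, GRCm38), keratocan, known from the cornea, had 43.6, 35.9 and 10.1 CPM in MyoD + F/R/C, against 0 counts in all +MyoD libraries. It was at least 960-fold higher (adjusted p = 6e-06), with a bound from 740 to 1320-fold when 1 MyoD + F/R/C library was left out. Dcn, decorin, had 829, 1078 and 552 CPM in MyoD + F/R/C, against 20.3, 71.2 and 95.1 CPM in +MyoD (log2FC 3.78, SE 0.41, adjusted p = 2.9e-05). Its close relative Bgn, biglycan, had 1391, 1827 and 1299 CPM in MyoD + F/R/C, against 5414, 7027 and 4619 CPM in +MyoD (log2FC −1.91, SE 0.14, adjusted p = 1.7e-06). These relatives moved in opposite directions in all 3 lines. Aspn, asporin, was lower too (log2FC −3.77, SE 0.59, adjusted p = 0.00044).
Among the 10 genes that lost most CPM were Fbln2, fibulin 2, with 249, 392 and 176 CPM in MyoD + F/R/C, against 5153, 6102 and 2674 CPM in +MyoD (log2FC −4.10, SE 0.28, adjusted p = 1.1e-06), and Spp1, osteopontin, with 1361, 1239.7 and 1642 CPM in MyoD + F/R/C, against 5030.5, 6013 and 8828 CPM in +MyoD (log2FC −2.203, SE 0.14, adjusted p = 9e-07), beside Tnc, Actg1 and Vim. The joint lubricant gene Prg4 had 1.56, 3.19 and 2.54 CPM in MyoD + F/R/C, against 19.1, 69.8 and 101 CPM in +MyoD (log2FC −4.64, SE 0.54, adjusted p = 4.7e-05). None of these 3 overlapped between the groups.
Integrins and laminins, the receptors and basement membrane proteins through which cells hold on to the matrix, showed 12 of 28 tested lower and 3 higher (5 higher without +MyoD replicate 2, median −0.44). Itga5, the fibronectin receptor subunit, had 219, 231 and 255 CPM in MyoD + F/R/C, against 1226, 1367 and 624 CPM in +MyoD (log2FC −2.18, SE 0.23, adjusted p = 2.7e-05). Itgb1, the common β subunit, had 1001, 799 and 1016 CPM in MyoD + F/R/C, against 3845, 3239 and 1842 CPM in +MyoD (log2FC −1.66, SE 0.23, adjusted p = 0.00018). Higher was Itga4, a subunit of the receptor for VCAM1, with 149, 96.04 and 185 CPM in MyoD + F/R/C, against 67.7, 68.2 and 59.5 CPM in +MyoD (log2FC 1.11, SE 0.18, adjusted p = 0.00053), while Vcam1 itself was lower (log2FC −1.26, SE 0.26, adjusted p = 0.0031).

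Genes of neurons and neurosecretory cells, which package and release hormones and transmitters, were higher in MyoD + F/R/C. Of 27 tested, 18 were called higher and the rest not called, with a median log2FC of 3.07. Chgb (ENSMUSG00000027350.8, chromosome 2 from 132781278 to 132795079, + strand, GRCm38), chromogranin B of secretory granules, had 172, 31.01 and 54.3 CPM in MyoD + F/R/C, against 1.53, 0.175 and 0.593 CPM in +MyoD (log2FC 6.72, SE 0.65, adjusted p = 1.1e-05). Chga, chromogranin A, had 26.8, 7.18 and 8.53 CPM in MyoD + F/R/C, against 0.908, 0.233 and 0.178 CPM in +MyoD (log2FC 4.98, SE 0.50, adjusted p = 1.6e-05). Prph, the intermediate filament peripherin of peripheral neurons, had 96.8, 21.2 and 25.8 CPM in MyoD + F/R/C, against 1.72, 2.18 and 0.415 CPM in +MyoD (log2FC 4.90, SE 0.57, adjusted p = 4.6e-05). Line 1 was the highest MyoD + F/R/C library for each of them, and all +MyoD libraries stood at 2.18 CPM or less. Dbh, which makes noradrenaline from dopamine, had 56.1, 13.7 and 14.6 CPM in MyoD + F/R/C, against 3.696, 0.611 and 1.34 CPM in +MyoD (log2FC 3.86, SE 0.43, adjusted p = 3.3e-05). Slc18a3, the vesicular transporter of acetylcholine and no member of the list, had 25.02, 7.13 and 8.57 CPM in MyoD + F/R/C, against 0.0313, 0.262 and 0 CPM in +MyoD (log2FC 6.92, SE 0.72, adjusted p = 2.1e-05). Peptide genes were among the genes with the highest log2FC. Pnoc, the precursor of nociceptin, had 133, 168 and 179 CPM in MyoD + F/R/C, against 1.002, 0.786 and 6.26 CPM in +MyoD (log2FC 6.11, SE 0.65, adjusted p = 2.4e-05), and Grp, gastrin-releasing peptide, had 14.5, 6.96 and 11.5 CPM in MyoD + F/R/C, against 0 counts in +MyoD, at least 365-fold higher (adjusted p = 2.5e-06). The 5 neuronal markers Snap25, Syt1, Elavl3, Elavl4 and Dcx were all called higher and summed to 46.9 to 119 CPM in MyoD + F/R/C, against 7.67 to 29.3 CPM in +MyoD and 4.44 to 5.87 CPM in MEFs. With limma-voom the calls of Chgb (adjusted p = 0.075), Slc18a3 (adjusted p = 0.056) and Th (adjusted p = 0.08) were lost, as were those of the markers Snap25 (adjusted p = 0.085), Elavl3 (adjusted p = 0.073) and Elavl4 (adjusted p = 0.1), and 10 of the 27 listed genes were higher. With only the 6 libraries compared and no replicate block 11 of 27 were. Melanocyte and neural crest markers showed none of 4 tested called, and they summed to 3.85 to 4.64 CPM in MyoD + F/R/C, against 2.13 to 7.44 CPM in +MyoD. In the longer list of these cells 2 of 11 tested genes were called higher and the rest not called (median 0.69). With 1 library left out, 1 to 4 were higher.

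Cell cycle genes were higher in MyoD + F/R/C. Of 26 tested DNA replication genes 17 were higher and the rest not called (median 0.81, 11 higher without MyoD + F/R/C replicate 1), and of 24 mitotic genes 20 were higher and the rest not called (median 0.89, 13 higher when replicate 1 of either group alone was left out). With only the 6 libraries compared, 9 replication and 6 mitotic genes were higher with the replicate block and 7 and 10 without it, and 10 mitotic genes were higher without line 1. Ube2c, which helps to degrade mitotic cyclins, had 32.98, 23.9 and 19.4 CPM in MyoD + F/R/C, against 10.4, 9.43 and 9.35 CPM in +MyoD (log2FC 1.36, SE 0.15, adjusted p = 3.6e-05). Mcm10, a replication initiation factor, had 6.82, 6.49 and 5.07 CPM in MyoD + F/R/C, against 1.79, 1.75 and 1.39 CPM in +MyoD (log2FC 1.90, SE 0.19, adjusted p = 1.6e-05). MEFs had 105 ± 2.39 CPM of Ube2c and 39.1 ± 4.84 CPM of Mcm10. The groups did not overlap for either gene. The per-line median of the mitotic list was 1.57, 1.0 and 0.27 in lines 1, 2 and 3, the smallest in line 3. The cell cycle inhibitor Cdkn1c, p57, was higher at the same time, with 242, 228 and 179 CPM in MyoD + F/R/C, against 23.8, 89.8 and 46.6 CPM in +MyoD (log2FC 2.11, SE 0.31, adjusted p = 0.00027), and Cdkn2b, p15, a known TGF-β target, was lower (log2FC −0.82, SE 0.17, adjusted p = 0.0027).

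Transcripts of the mitochondrial genome were higher, and none of the listed nuclear genes of the respiratory chain was called. Of 13 tested mitochondrial genes 11 were higher and the rest not called (median 0.72, 7 higher without MyoD + F/R/C replicate 2), whereas 0 of 28 nuclear genes were called by edgeR (median 0.16), with 7 of them at an unadjusted p under 0.05 and 0 called by DESeq2. Of these, Atp5o (log2FC 0.40, adjusted p = 0.012), Ndufb5 (log2FC 0.42, adjusted p = 0.031) and Cyc1 (log2FC 0.35, adjusted p = 0.046) passed the adjusted p but not the log2FC threshold, and Ndufb5 was called higher without MyoD + F/R/C replicate 3 (log2FC 0.53). Mitochondrial genes took 3.10%, 2.98% and 3.04% of all counts in MyoD + F/R/C, against 1.43%, 1.52% and 1.80% in +MyoD. The cytochrome oxidase gene mt-Co2 had 2943, 2819 and 2627 CPM in MyoD + F/R/C, against 1343, 1384 and 1619 CPM in +MyoD (log2FC 0.95, SE 0.16, adjusted p = 0.0008). Mt-Cytb had 3399.7, 3511 and 3513 CPM in MyoD + F/R/C, against 1587, 1648 and 2246 CPM in +MyoD (log2FC 0.94, SE 0.17, adjusted p = 0.0012). Leaving mitochondrial genes out of the counts gave 2305 genes higher and 1622 lower. Ppargc1b, a coactivator of mitochondrial genes, was higher (log2FC 2.40, SE 0.31, adjusted p = 0.0001).

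**Figure D5:**
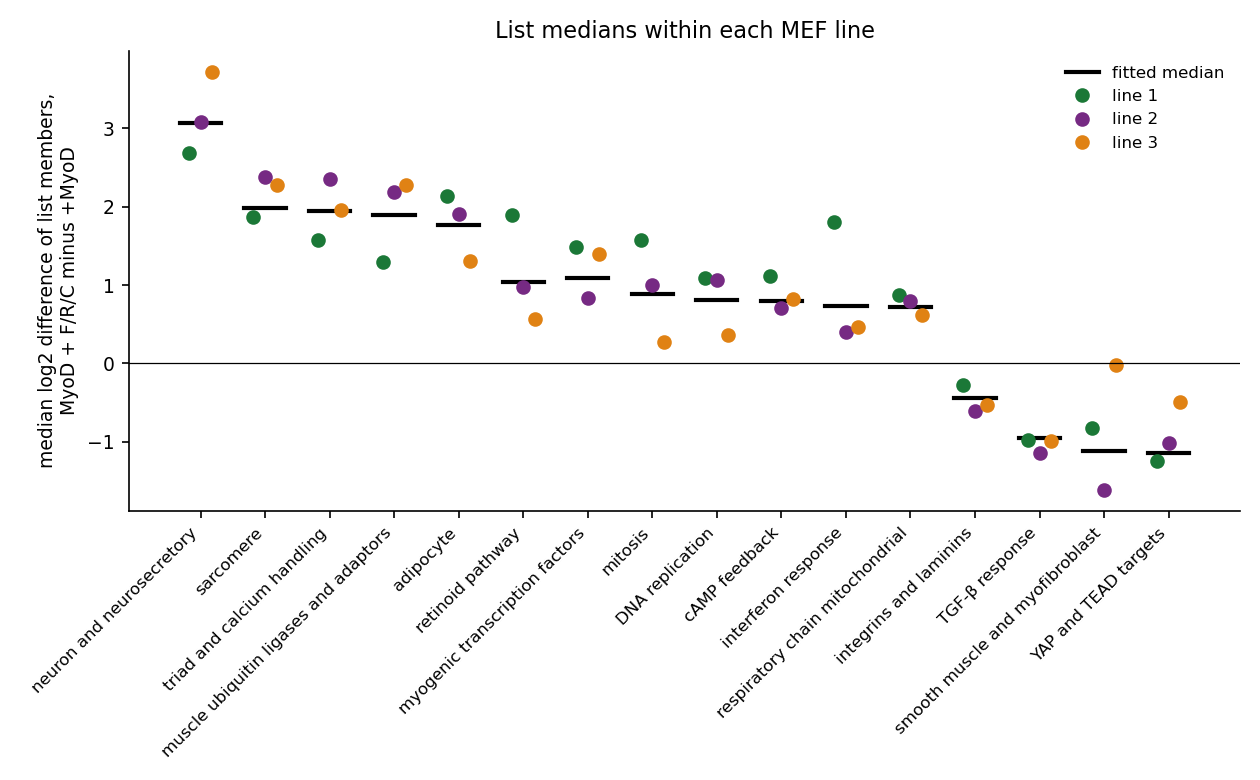
Median log2 difference of MyoD + F/R/C minus +MyoD within each MEF line (points, lines 1 to 3) over the tested members of 16 gene lists (vertical axis), with the median of the fitted log2FC as a bar. The 3 lines lie close together for sarcomere genes (1.87, 2.38 and 2.27) and apart for interferon response genes (1.80, 0.40 and 0.47).

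Retinoid genes formed another group of large changes. Of 16 tested, 8 were higher and 4 lower (median 1.04). Stra6, the receptor that takes up retinol, had 134, 76.4 and 92.02 CPM in MyoD + F/R/C, against 1.19, 0.931 and 2.97 CPM in +MyoD (log2FC 5.93, SE 0.34, adjusted p = 3.8e-07). Rarb, a retinoic acid receptor and retinoic acid target, had 53.3, 41.7 and 53.8 CPM in MyoD + F/R/C, against 1.88, 2.42 and 5.13 CPM in +MyoD (log2FC 4.00, SE 0.30, adjusted p = 2.2e-06). Crabp1 and Crabp2, which bind retinoic acid in the cell, moved in opposite directions. Crabp1 had 2807, 2056 and 1382 CPM in MyoD + F/R/C, against 175, 507 and 781 CPM in +MyoD (log2FC 2.15, SE 0.42, adjusted p = 0.0021). Crabp2 had 23.6, 34.4 and 18.02 CPM in MyoD + F/R/C, against 71.4, 104 and 129 CPM in +MyoD (log2FC −2.004, SE 0.23, adjusted p = 4.9e-05), without overlap in either. The receptor Rara was lower (log2FC −1.06, SE 0.17, adjusted p = 0.00054).
Imprinted growth genes showed 9 of 20 tested higher and the rest not called (median 0.71). Peg10, a retrotransposon-derived gene, had 845, 718 and 882 CPM in MyoD + F/R/C, against 92.03, 23.7 and 86.3 CPM in +MyoD (log2FC 3.68, SE 0.33, adjusted p = 6.8e-06). Dlk1, an inhibitor of adipocyte formation and a relative of Notch ligands, had 496, 784 and 669 CPM in MyoD + F/R/C, against 57.01, 389 and 116 CPM in +MyoD (log2FC 2.07, SE 0.35, adjusted p = 0.00085). Igf2, an insulin-like growth factor with the second largest gain in mean CPM, had 5758, 6892 and 6536 CPM in MyoD + F/R/C, against 827, 7323 and 3920.5 CPM in +MyoD. The groups overlapped and it was not called (log2FC 0.86, SE 0.42, adjusted p = 0.17), but it was called higher without +MyoD replicate 2 (adjusted p = 0.02). Its relatives Igf1 (log2FC 1.87, SE 0.34, adjusted p = 0.0013) and Igfbp5 (log2FC 2.48, SE 0.30, adjusted p = 5.8e-05) were higher, but of 15 tested genes of IGF signalling only 3 were called higher and 2 lower (median 0.20). Those lower were Igfbp7 (log2FC −0.79, SE 0.19, adjusted p = 0.0074) and the IGFBP protease Pappa (log2FC −0.87, SE 0.29, adjusted p = 0.045). Igfbp7 was not called without MyoD + F/R/C replicate 2 (adjusted p = 0.054) and had a log2FC of −0.50 without +MyoD replicate 2. Pappa was not called without any 1 MyoD + F/R/C library (adjusted p up to 0.17) or without +MyoD replicate 1 or 2 (adjusted p = 0.19 and 0.14).
In the Notch pathway 6 of 23 tested genes were higher and 4 lower (median −0.12), and 3 were higher without MyoD + F/R/C replicate 3 or +MyoD replicate 2 or 3. Dll1, the ligand that muscle cells present to stem cells, had 13.5, 8.77 and 10.6 CPM in MyoD + F/R/C, against 0.689, 0.553 and 0.0593 CPM in +MyoD (log2FC 4.77, SE 0.49, adjusted p = 1.8e-05), while the receptor gene Notch2 (log2FC −0.92, SE 0.15, adjusted p = 0.00053) and the target gene Hes1 (log2FC −0.91, SE 0.17, adjusted p = 0.0013) were lower.
Adipocyte genes showed 7 of 13 tested higher and the rest not called (median 1.76), with the fat cell regulator Pparg at 12.5, 24.5 and 18.3 CPM in MyoD + F/R/C, against 3.32, 3.23 and 3.62 CPM in +MyoD (log2FC 2.42, SE 0.22, adjusted p = 6.6e-06) and Lpl, lipoprotein lipase, at 272, 420.4 and 293 CPM in MyoD + F/R/C, against 20.5, 69.2 and 77.2 CPM in +MyoD (log2FC 2.62, SE 0.33, adjusted p = 8.8e-05). Of the 4 markers of mature fat cells 1 was called higher, and they summed to 7.18 to 14.7 CPM in MyoD + F/R/C, against 0.228 to 5.71 CPM in +MyoD.
Interferon response genes, which transfected RNA is known to induce, showed 9 of 36 tested higher and the rest not called (median 0.73). That count was 2 without MyoD + F/R/C replicate 3, 3 without MyoD + F/R/C replicate 1 or +MyoD replicate 1, 4 without MyoD + F/R/C replicate 2, 5 without +MyoD replicate 2 and 15 without +MyoD replicate 3. Oasl2 had 10.5, 6.54 and 13.6 CPM in MyoD + F/R/C, against 0.251, 1.83 and 2.55 CPM in +MyoD (log2FC 2.71, SE 0.57, adjusted p = 0.0034), and MyoD + F/R/C cultures with the JAK inhibitor CP690550 averaged 1.64 ± 0.169 CPM.
Secreted immune signals went both ways, with 6 of 23 tested chemokines and cytokines higher and 8 lower (median −0.14, 3 to 4 lower when MyoD + F/R/C replicate 1, 2 or 3 or +MyoD replicate 2 was left out). Ccl11, eotaxin, had 103, 88.5 and 56.6 CPM in MyoD + F/R/C, against 4.39, 5.79 and 14.3 CPM in +MyoD (log2FC 3.37, SE 0.39, adjusted p = 4.8e-05). Csf1, the macrophage growth factor, had 205, 251 and 201 CPM in MyoD + F/R/C, against 1031, 766 and 485 CPM in +MyoD (log2FC −1.80, SE 0.23, adjusted p = 9.5e-05). Cxcl12, a chemokine of stem cells and muscle precursors, had 129, 241 and 193 CPM in MyoD + F/R/C, against 315, 930.1 and 593 CPM in +MyoD (log2FC −1.66, SE 0.23, adjusted p = 0.00015). Ccl11 was higher and Csf1 and Cxcl12 lower in every MyoD + F/R/C library.
Growth factor genes of the FGF family showed 5 of 20 tested higher and 2 lower (1 lower without MyoD + F/R/C replicate 2 or +MyoD replicate 2, median 0.13). Fgf6, a ligand made by muscle that was among the genes with the highest log2FC and is not a member of the list, had 20.5, 18.6 and 26.6 CPM in MyoD + F/R/C, against 0.251, 0.0291 and 0.356 CPM in +MyoD (log2FC 6.69, SE 0.39, adjusted p = 1.2e-06). Fgf2 had 32.95, 43.5 and 35.5 CPM in MyoD + F/R/C, against 198, 178 and 159 CPM in +MyoD (log2FC −2.27, SE 0.22, adjusted p = 1.1e-05). Fgf6 was far higher and Fgf2 lower in every MyoD + F/R/C library. AP-1 factors, which answer to growth factors and stress, showed 3 of 12 tested higher and 3 lower (median 0.82), with 1 higher without the replicate block and 1 lower without MyoD + F/R/C replicate 1 or 3 or +MyoD replicate 2. Jun had 244, 555 and 233 CPM in MyoD + F/R/C, against 113, 189 and 157 CPM in +MyoD (log2FC 1.10, SE 0.21, adjusted p = 0.0017). Fos had 148, 487 and 204 CPM in MyoD + F/R/C, against 12.8, 127 and 108 CPM in +MyoD (log2FC 1.87, SE 0.45, adjusted p = 0.008), and its call was lost without the replicate block (adjusted p = 0.055), as was that of Fosb (log2FC 2.03, SE 0.41, adjusted p = 0.0029, adjusted p = 0.11 without the block). Lower were Fosl2 (log2FC −0.57, SE 0.16, adjusted p = 0.022), Maff (log2FC −0.72, SE 0.24, adjusted p = 0.04) and Mafk (log2FC −0.83, SE 0.20, adjusted p = 0.0077). Fosl2 was not called without MyoD + F/R/C replicate 3 or +MyoD replicate 2 (adjusted p = 0.13 and 0.12). Maff was not called without any 1 MyoD + F/R/C library (adjusted p up to 0.21), without +MyoD replicate 2 (adjusted p = 0.23) or without the replicate block (adjusted p = 0.051). Mafk was not called without MyoD + F/R/C replicate 1 (adjusted p = 0.056) and had a log2FC of −0.48 without +MyoD replicate 1.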

How the data were processed

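RNA-seq of whole cultures was deposited as transcript tables with estimated counts and TPM. Per the labels and the study's methods, the authors demultiplexed reads with bcl2fastq 2.20, trimmed them with fastp 0.20.0 and pseudoaligned them with kallisto 0.46.1 to the mouse transcriptome (GRCm38.p6). This splits reads of near-identical transcripts by estimate, so levels of close paralogs and isoforms are uncertain. The authors' DESeq2 comparisons were not used.

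The deposited estimated counts were summed per gene over 121104 of 121843 transcripts matched to GENCODE M21 and rounded (739 transcripts, with 0.236% to 0.327% of counts, had no match). No column of per-sample values was left unused (0 of them). The deposited TPM served for transcript shares only. Genes were filtered by filterByExpr (minimum count 10, minimum total 15), scaled by TMM and fitted with edgeR 4.0.16 (quasi-likelihood, R 4.3.3) over all 15 libraries with group and MEF line as terms (residual df 8, biological coefficient of variation 0.315), with Benjamini-Hochberg adjustment over all 19331 genes and an adjusted p of at most 0.05 with a log2FC over 0.5 in size as the call. SE is the log2FC divided by the square root of F. The line is a term because the study's methods name 3 MEF lines and the names of the deposited files give 1 line code per replicate number. Deviations from the group means had a mean correlation of 0.0737 over 30 same-line pairs of libraries, against −0.0368 over 60 other pairs, and of 0.128, 0.166 and 0.0307 between the MyoD + F/R/C and +MyoD libraries of lines 1, 2 and 3.

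Alternatives were no line term, only the 6 libraries compared, RLE size factors, no filter, lengthScaledTPM counts, mitochondrial genes left out, DESeq2 1.42.0, limma-voom 3.58.1 with sample weights, and each library or line left out. Genes were drawn from a rule that gives more genes than the text describes: the 20 highest and 20 lowest log2FC values among called genes without overlap (with 5 CPM or more, on average, where higher), 4 members or fewer per list by smallest p and those called against the list's main direction, the 10 largest gains and losses in mean CPM, Myod1 and the compound targets, and the 10 most abundant called regulators. Ankrd1, Areg, Col3a1, Dkk1, Dusp1, Maff, Myh1, Myh7, Myl9, Nkd2, Notum, Pax7, Postn, Rnf43, Scg2, Snai1, Snai2, Sp5, Sst, Tcap and Znrf3 fall outside it and were named after their values were seen. Lists and comparison were chosen with earlier results of these data known. With 0 counts in all 3 libraries of +MyoD, a fold is a lower bound against 3 counts over the group. Promoters are RefSeq sequences, searched on both strands.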

Additional observations from a re-analysis of the deposited data

How the results depend on the processing

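Without the replicate block 2114 genes were called higher and 1621 lower, and 2036 and 1587 of the calls with the block were kept. With only the 6 libraries compared, 1223 were higher and 932 lower with the replicate block and 1246 and 964 without it, a fit with fewer libraries to estimate the spread, and 56.8% and 56.4% of calls were higher, against 56.7% with 15 libraries. With a log2FC over 1 as the threshold 761 were lower. RLE size factors gave 2308 and 1635, no filter 2350 and 1612, lengthScaledTPM counts 1762 and 1515, DESeq2 2749 and 1817, and limma-voom 1891 and 1624. With each library left out in turn, genes higher ranged between 1793 and 2260 and genes lower between 1278 and 1874, the fewest when MyoD + F/R/C replicate 1 was missing and the most when +MyoD replicate 3 was, and with a line left out there were 1695 to 2022 higher and 1270 to 1697 lower. Of 143 list medians under other scalings 141 moved by no more than the spread of the lines. With lengthScaledTPM counts the median was 0.10 for fusion genes and −0.82 for TGF-β response genes, and the cause was not tested. Of 171 genes named, 133 kept their call and direction under all 18 alternatives, and none reversed. Of 3074 pairs of gene and alternative, 121 lost and 7 gained a call. Some counts of list members moved by over 1.5 times. With only the 6 libraries and the replicate block, 3 interferon response, 3 fibroblast identity, 2 fusion, 5 myogenic factor, 6 Wnt ligand and receptor, 5 retinoid and 3 FGF genes were higher, and 7 collagen, 4 contractile, 4 Wnt ligand and receptor, 3 Wnt target, 3 TGF-β and BMP pathway, 3 chemokine and 0 AP-1 genes were lower. With the same libraries and no block, 2 interferon response, 2 fibroblast identity, 2 fusion, 2 Notch, 6 Wnt ligand and receptor, 5 cAMP-induced, 6 collagen, 3 chemokine, 3 FGF and 1 AP-1 genes were higher, and 6 collagen, 6 YAP and TEAD, 5 contractile, 5 Wnt ligand and receptor, 3 Wnt target, 2 cAMP-induced, 3 chemokine and 1 AP-1 genes were lower. With lengthScaledTPM counts 3 interferon response, 3 fusion, 6 myogenic factor, 3 splicing, 3 Notch and 3 FGF genes were higher and 5 chemokine genes lower, and with limma-voom 5 interferon response and 6 myogenic factor genes were higher. DESeq2 and the fit with no filter each called 5 AP-1 genes higher. Counts of list members without each library were added after seeing the data. Genes under about 1 CPM rest on few counts.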
